A study of Arabidopsis thaliana with 12 samples.

Results

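Transcripts of 4 nuclear genes that maintain the RNA and DNA of chloroplasts and mitochondria were compared between wild-type (WT) plants and the psad1 mutant of *Arabidopsis thaliana*. The genes were PAC (AT2G48120), AT5G55580 of the mTERF family, OTP70 (AT4G25270) and OSB1 (AT1G47720). Each was taken from the single array probe whose platform annotation lists it and no other gene, which gave 4 of the 692 probes with exactly 1 gene, on an array of 3439 probes. Total RNA had been hybridised in 12 samples, 6 labelled WT and 6 labelled psad1. Both genotypes were of the ecotype Columbia 0, and the mutant lacks PSI-D1, a photosystem I protein. The sources used here do not give the tissue, the age of the plants, the growth conditions, the mutant allele or any treatment. Of 8 marker genes of seeds, roots, senescence and pathogen response, 0 had a tested probe of their own, so the tissue could not be checked against markers.

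Chloroplasts and mitochondria keep small genomes of their own, but nearly all proteins that transcribe, splice, edit and repair them are encoded in the nucleus and imported. Many belong to plant-expanded families of helical-repeat proteins, such as the pentatricopeptide repeat (PPR) and mTERF proteins, which bind organelle nucleic acids at specific places. Loss of a chloroplast member commonly leaves plants pale, because plastid transcripts and plastid ribosomes then fail to mature. PAC, or PALE CRESS, acts in the maturation of plastid ribosomal RNA. AT5G55580 encodes mTERF9, a chloroplast protein that takes part in ribosome assembly. OTP70 is a PPR protein needed to splice the chloroplast rpoC1 transcript, which encodes a subunit of the plastid RNA polymerase. OSB1 binds single-stranded DNA in mitochondria and restrains recombination of the mitochondrial genome.

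The values are the deposited intensities, on a linear scale with no stated unit. The mean over all probes ran from 1.05 to 1.07 in the 12 samples and the median from 0.554 to 0.623. Within a genotype, samples 1 and 2, 3 and 4, and 5 and 6 were far more alike than other samples: their deviations from the genotype mean correlated across probes with r between 0.469 and 0.649, against −0.609 to −0.111 otherwise. Deviations from a mean of 6 samples sum to 0, so the correlations of other samples are pushed below 0 by construction. Averaging samples 1 and 2, 3 and 4, and 5 and 6 had been fixed before the fits, with the likeness of partners known from earlier results. It left 3 set averages per genotype as replicates. The labels do not tie samples or sets to separate plants, and the p-values measure a spread between sets that may be technical. The small number of sets limits the precision of every value.

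PAC had the widest difference of the 4 genes, with higher values in psad1. Its set averages were 0.448, 0.354 and 0.451 in WT and 0.75, 0.519 and 0.547 in psad1. Single samples ran from 0.349 to 0.489 in WT and from 0.51 to 0.76 in psad1. All 6 psad1 samples thus lay above all 6 WT samples, and the sets did not overlap. Across the array, the 12 samples separated by genotype in this way for 9.03% of the 3202 tested probes, and the set averages for 20.8%. In total RNA of a whole sample, a different share of the cells that express a gene and a different level per cell cannot be told apart.

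Over sets, PAC averaged 0.418 ± 0.0556 (SD, n = 3) in WT samples and 0.606 ± 0.126 in psad1 samples. The ratio estimated from log2 set averages was 1.44 with a 95% interval of 1.13 to 1.84. On the log2 scale this was 0.53 with a standard error (SE) of 0.16. Limma on set averages, with Benjamini-Hochberg adjustment over all tested probes, gave an adjusted p of 0.163, so PAC did not pass the threshold of 0.05. Before adjustment the p was 0.00769, the rank 151 of 3202, and 14.9% of all probes had an unadjusted p under 0.05. With the 12 samples taken as independent, limma's adjusted p was 0.00803, in a fit that called 15.8% of all probes. With the sets as a random block it was 0.0723. An exact 2-sided permutation test of 3 sets against 3 gave 0.1, the smallest p that this design allows. That value only restates that the sets did not overlap.

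The probes that follow PAC in the array's numbering had differences of the same direction (0.24 to 0.43 on the log2 scale). Both probes just before it had the other direction (−0.46 and −0.32). Subtraction of a running median over 25 probes gave a PAC difference of 0.63. Subtraction of a single median over probes up to 2 and 286 to 290 numbers away gave 0.27. The part of these probes in the result was not tested. The values of PAC in psad1 were also uneven between sets. Samples 1 and 2 of psad1 measured 0.74 and 0.76, while the other 4 psad1 samples lay between 0.51 and 0.576. Without that set the log2 difference was 0.36 (adjusted p 0.327), and without WT set 2, the lowest WT set, it was 0.41 (0.37). Partner samples of PAC differed by at most 0.24 on the log2 scale, in WT set 3, while psad1 set 1 lay 0.46 above the next psad1 set.

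**Figure D1:**
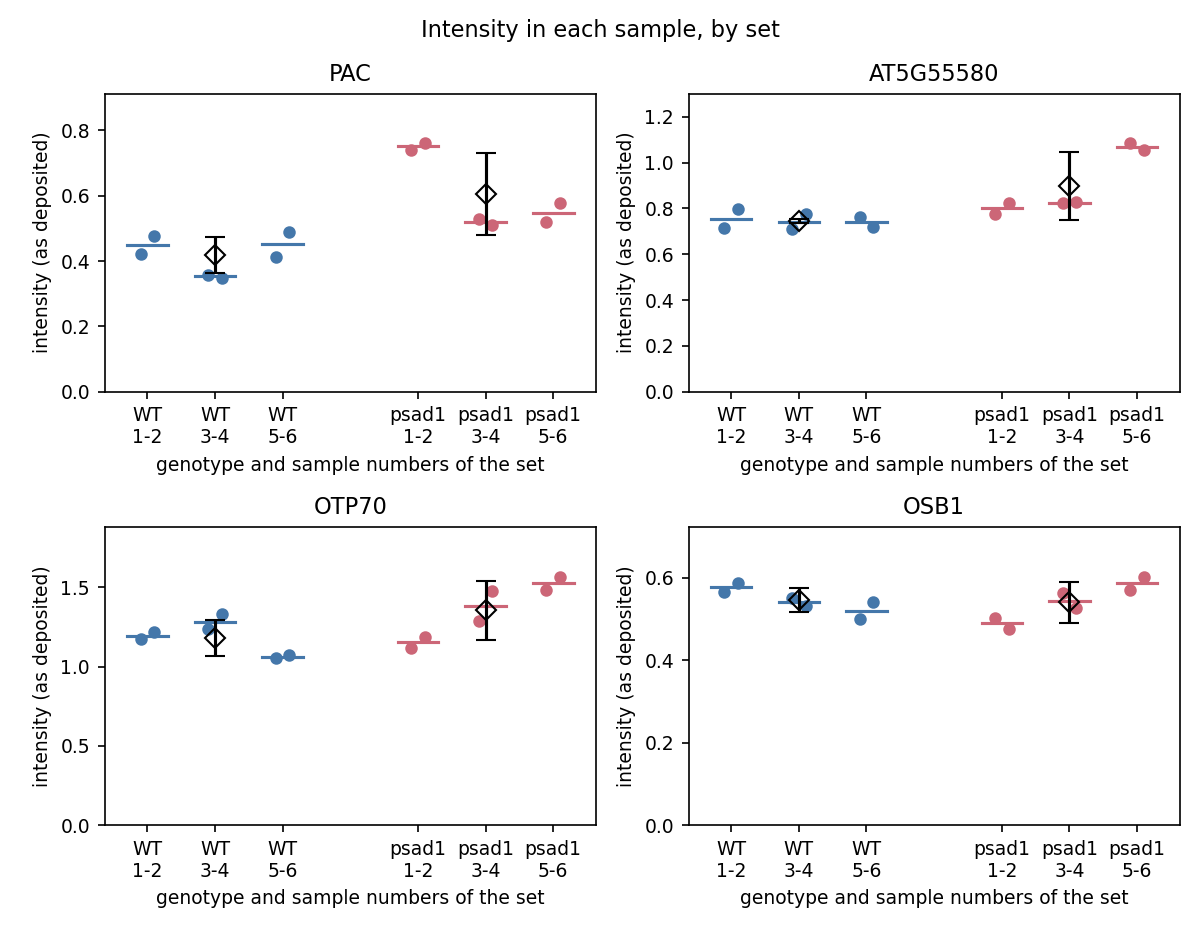
Deposited intensity (linear axis from 0) of PAC, AT5G55580, OTP70 and OSB1 in each of the 12 samples. Dots are samples, short lines are set averages, and open diamonds with bars are the mean and SD of 3 set averages per genotype. All psad1 dots of PAC lie above its WT dots, whereas the dots of OSB1 share one range.

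AT5G55580, the mTERF gene, also had higher values in psad1, by less than PAC. WT set averages were nearly equal, at 0.755, 0.743 and 0.74, and those of psad1 were 0.801, 0.825 and 1.07. The sets did not overlap, as for 20.8% of all tested probes. Of 6 psad1 samples, 5 were above the highest WT sample, which measured 0.797. The third psad1 set stood apart, with 1.08 and 1.05 in its samples, while the other mutant samples lay between 0.776 and 0.828.

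For AT5G55580 the WT mean was 0.746 ± 0.0079 (SD, n = 3) and the psad1 mean 0.898 ± 0.149. The log2 difference was 0.26 (SE 0.13, 95% interval −0.02 to 0.54), and limma's adjusted p was 0.382 on set averages and 0.0569 on 12 samples. Without psad1 set 3 the log2 difference was 0.12 (adjusted p 0.698). The exact permutation p was 0.1, the smallest possible, which only restates that the sets did not overlap. The SD of psad1 sets was thus far wider than that of WT sets for this gene, and the difference between genotypes was smallest without that set.

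A second probe lists AT5G55580 together with AT1G78930, and for this reason names neither. It measured 0.594 ± 0.0478 in WT and 0.601 ± 0.0591 in psad1 (log2 difference 0.01, SE 0.11, limma adjusted p 0.964). Its samples ran from 0.544 to 0.654 in WT and from 0.53 to 0.683 in psad1, a full overlap. The signal of this probe was not higher in psad1 samples 5 and 6, which read 0.559 and 0.598. The single-gene probe of AT5G55580 and this shared probe therefore did not show the same pattern. Which transcript the shared probe reports was not tested.

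OTP70, the splicing factor, differed less than PAC and AT5G55580, and its sets overlapped between genotypes. Its set averages were 1.2, 1.28 and 1.06 in WT and 1.15, 1.38 and 1.52 in psad1. The lowest psad1 set lay below 2 of the 3 WT sets, and 3 of 6 psad1 samples exceeded the highest WT sample, at 1.33. Means were 1.18 ± 0.111 (SD, n = 3) and 1.35 ± 0.186, a log2 difference of 0.19 (SE 0.13, 95% interval −0.10 to 0.48). Limma's adjusted p was 0.503 on set averages and 0.155 on 12 samples, and the exact permutation p was 0.3. Without psad1 set 3 the log2 difference was 0.10, without WT set 3 it was 0.12, and without psad1 set 1 it was 0.30.

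OSB1, the mitochondrial DNA-binding gene, had the smallest difference of the 4. It measured 0.576, 0.541 and 0.52 in the WT sets and 0.489, 0.544 and 0.586 in the psad1 sets. Both genotypes spanned the same range, with 0.5 to 0.587 in WT samples and 0.476 to 0.602 in psad1 samples. The means were 0.546 ± 0.0285 (SD, n = 3) and 0.54 ± 0.0487. The ratio estimated from log2 set averages was 0.988 with a 95% interval of 0.834 to 1.17. Limma's adjusted p was 0.954. The interval, which is not adjusted for the number of genes, leaves room for a difference of that size in either direction. The sign of the log2 difference of −0.02 turned to 0.05 without psad1 set 1 and to 0.02 without WT set 1.

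On set averages, 0 of the 4 genes passed, where 0.874% of all tested probes did. At an unadjusted p under 0.05, 1 of the 4 did, PAC, where 14.9% of all probes did. On 12 samples, 1 of the 4 passed, PAC again, where 15.8% of all probes passed, 7.71% with higher values in psad1. Of all tested probes, 2.15% had a wider log2 difference than PAC in either direction, 19.7% a wider one than AT5G55580, 33.1% than OTP70 and 92.4% than OSB1. The median log2 difference over all tested probes was −0.02, with 5th and 95th percentiles of −0.29 and 0.38. PAC alone of the 4 lay outside these percentiles.

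**Figure D2:**
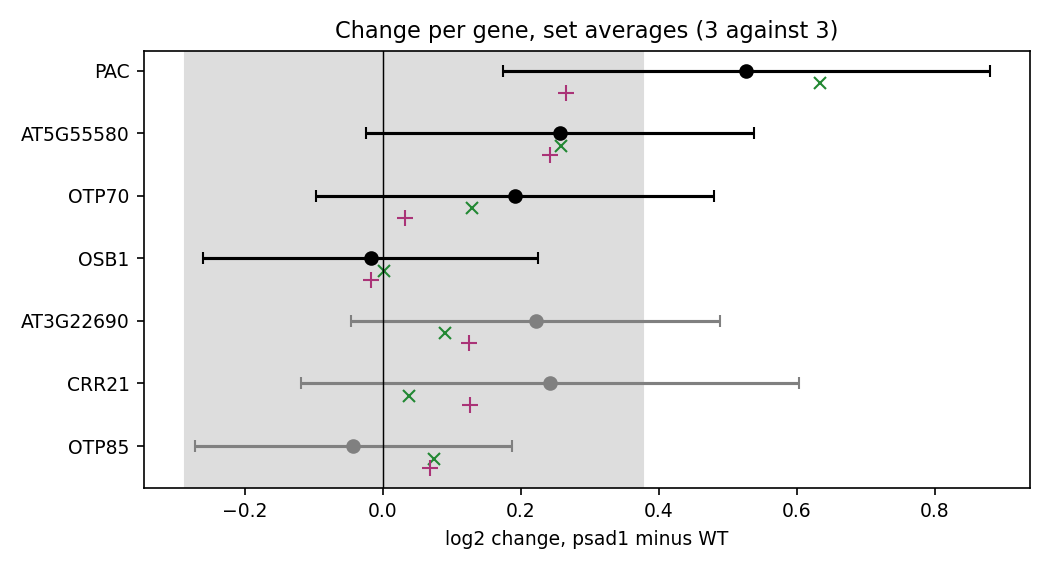
Log2 difference between psad1 and WT (horizontal axis) for the 4 genes (black) and 3 RNA editing genes (grey). Dots with bars are limma estimates from set averages with 95% intervals. Green crosses are the estimates after subtraction of a running median over 25 probes. Red plus signs are those after subtraction of a single median over probes up to 2 and 286 to 290 numbers away. The shaded band spans the 5th to 95th percentile of all tested probes. Only the interval of PAC lies wholly above 0, and the crosses of OTP70, AT3G22690 and CRR21 lie closer to 0 than their dots.

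The pattern across sets differed between PAC and the other 3 genes. For PAC the highest of the 6 set averages was psad1 set 1. For AT5G55580, OTP70 and OSB1 it was psad1 set 3, the set that was highest for 25.6% of all tested probes. Taking set numbers as they stand, the log2 difference between same-numbered sets ran 0.74, 0.55 and 0.28 for PAC from set 1 to set 3. It ran 0.09, 0.15 and 0.53 for AT5G55580, and −0.05, 0.11 and 0.52 for OTP70. For OSB1 it was −0.24, 0.01 and 0.17. The labels do not pair the numbers, so these differences only restate where each gene was high. Over the 12 samples, Pearson's r of log2 intensity was 0.77 between AT5G55580 and OTP70, 0.52 between OTP70 and OSB1 and 0.36 between PAC and AT5G55580. PAC had an r of 0.02 with OTP70 and −0.32 with OSB1. These 12 points share sets and genotypes, and 45 of the other 639 tested single-gene probes followed AT5G55580 more closely than OTP70 did.

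**Figure D3:**
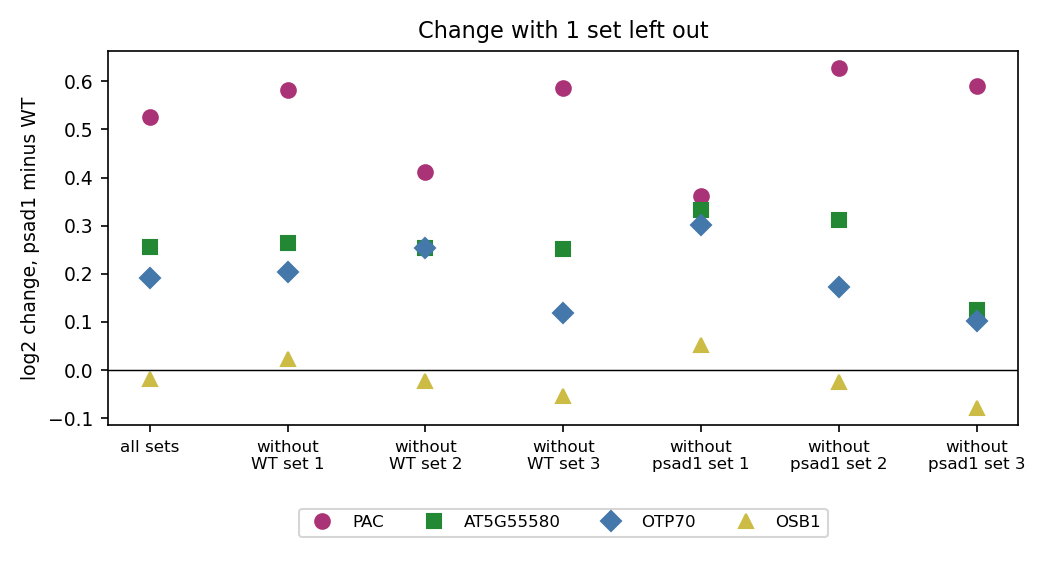
Log2 difference between psad1 and WT (vertical axis) of each gene with all sets and with each of the 6 sets left out (horizontal axis). PAC stays between 0.36 and 0.63 and is lowest without psad1 set 1, AT5G55580 and OTP70 are lowest without psad1 set 3, and OSB1 lies on either side of 0.

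The genes most like each of the 4 were sought among the other 639 tested single-gene probes, by Pearson's r of log2 intensity over the 12 samples. PAC was followed most closely by AT4G31470 (r = 0.96), AT2G25870 (0.95) and AT2G19870 (0.93). AT2G25870 stands only 2 numbers from PAC on the array, the closest of these 12 matches, and is one of the probes that share its difference. The log2 differences of these 3 genes between genotypes were 0.44, 0.34 and 0.21, and none passed (limma adjusted p 0.159, 0.324 and 0.448). AT5G55580 was followed by AT4G24750 (0.95), AT3G52550 (0.92) and AT3G54210 (0.90), with log2 differences of 0.36, 0.50 and 0.18.

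OTP70 was matched most closely of all, by AT4G09620 with an r of 0.98, then by AT1G73740 (0.94) and AT4G19160 (0.94). Their log2 differences were 0.26, 0.23 and 0.26. OSB1 had looser matches, AT5G67490 (0.90), AT2G13690 (0.88) and AT1G32160 (0.84), with differences of −0.03, −0.01 and 0.03. None of the 9 genes most like AT5G55580, OTP70 or OSB1 passed on set averages. Over deviations from the genotype mean, r for the 12 matches lay between 0.85 and 0.97. The matches were picked for a high r on these same values, so this range is no separate check of the likeness. The 12 points are 6 sets of 2 partners, and a high r over so few independent points is a description only.

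Probes with nearby numbers shared part of their differences between genotypes, which bears on each gene differently. Across tested probes, the log2 differences of probes 1 number apart correlated with r = 0.50, against 0.04 at 100 apart. Of the spacings from 50 to 500 numbers, the correlation was highest at 288 (r = 0.44). Probes are not independent replicates, and the sources used here do not say whether the numbering follows the layout of the array.

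PAC stood at the edge of such a group. The 4 probes that follow it in number had log2 differences of 0.39, 0.34, 0.43 and 0.24, and their log2 intensity followed that of PAC over the 12 samples with r between 0.84 and 0.95. The tested probes 288 numbers before and after PAC had log2 differences of 0.30 and 0.50. Both probes just before PAC lay in the other direction, at −0.46 and −0.32. The direction of PAC was thus shared by the 4 probes after it and by those 288 numbers away.

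Different corrections of the log2 values for position therefore gave unlike results for PAC. Subtraction of a running median over 25 neighbouring probes, which around PAC holds 5 higher and 19 lower probes, gave 0.63 (SE 0.18, limma adjusted p 0.124 on set averages). Another correction subtracted a single median over the probes up to 2 numbers away and those 286 to 290 numbers away. This nearest-probe correction, chosen after the values were seen, gave 0.27 (SE 0.09, limma adjusted p 0.242 on set averages). On 12 samples PAC passed with both, at adjusted p of 0.00454 and 0.0402, in fits that called 13.7% and 10.9% of all probes. On set averages these fits called 1.75% and 1.66%.

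AT5G55580 depended less on the correction. Its log2 difference was 0.26 with the running median (SE 0.07, limma adjusted p 0.124 on set averages) and 0.24 with the nearest probes (SE 0.09, 0.262). On 12 samples these passed at limma adjusted p of 0.00659 and 0.0475, in the fits that called 13.7% and 10.9% of all probes. Those fits took partner samples as independent, although partners were far more alike than other samples. The probes next to AT5G55580 in number had 0.08 and 0.02, and the 9 tested probes 286 to 290 numbers away had a median of −0.01, with a range of −0.40 to 0.20.

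OTP70 differed little from the probes around it. The 2 tested probes next to it had log2 differences of 0.16 and 0.15 and followed its intensity with r of 0.85 and 0.92, and 5 of 5 probes about 288 numbers away were higher in psad1, with a median of 0.16. The difference of OTP70 was 0.13 with the running median (SE 0.06, adjusted p 0.381) and 0.03 with the nearest probes (SE 0.08, adjusted p 0.904). OSB1 had corrected differences of 0.00166 and −0.02.

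**Figure D4:**
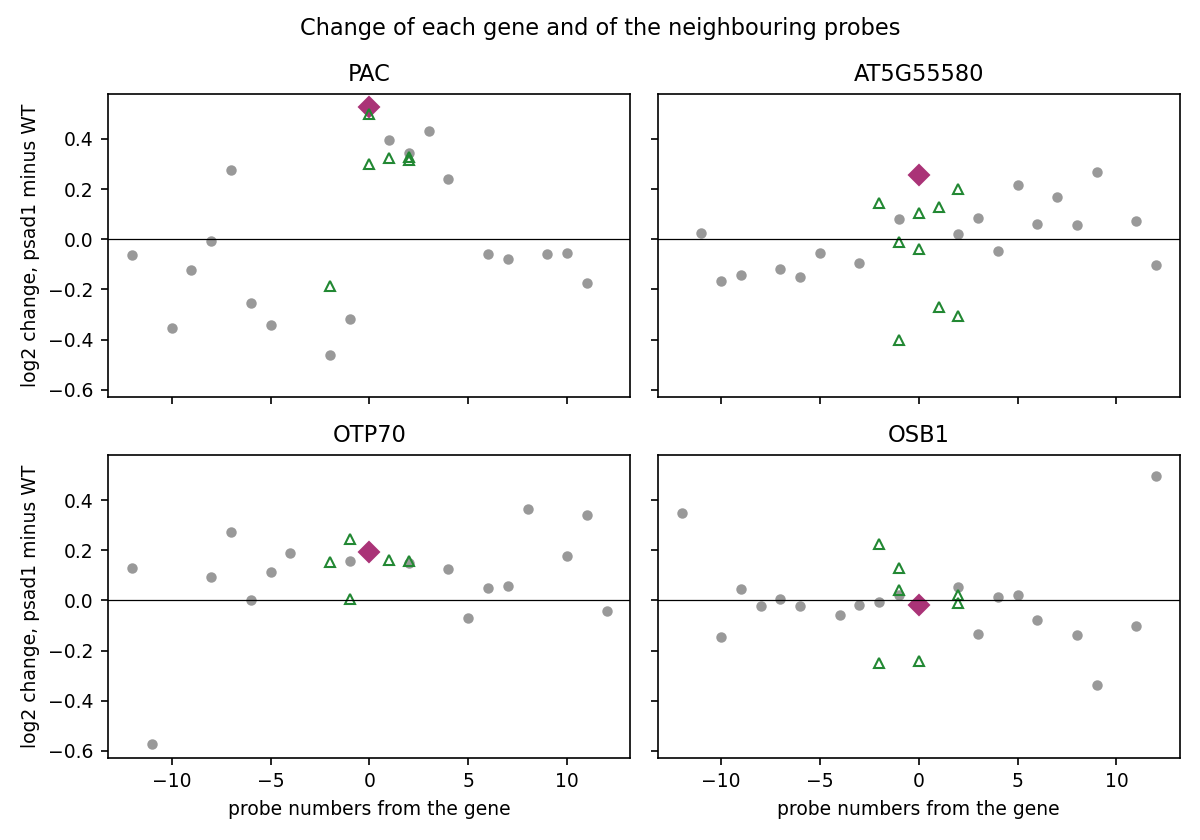
Log2 difference between psad1 and WT (vertical axis) of each gene (diamond at 0) and of tested probes up to 12 probe numbers away (grey dots). Green triangles are probes 286 to 290 numbers before or after the gene, drawn at their distance from the 288th. The 4 dots after PAC lie between 0.24 and 0.43 and the triangles at its own place at 0.30 and 0.50, while both dots just before it lie at −0.46 and −0.32.

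Other genes of organelle gene expression and genome upkeep were taken from lists of 120 loci that include the 4 genes. The lists cover mTERF proteins, transcription, splicing and processing, editing, plastid ribosome assembly and DNA maintenance. A tested probe of their own was found for 7 of the 120: the 4 genes and 3 of RNA editing. With limma, none of the 7 passed on set averages, where 0.874% of all probes did. PAC was the only one of the 7 with an unadjusted p under 0.05 on set averages (14.9% of all probes) and the only one that passed on 12 samples (15.8% of all probes). Values were higher in psad1 for 5 and lower for 2, and their median log2 difference was 0.22, against −0.02 for all tested probes. Without the 4 genes, 2 were higher and 1 lower. The genes were chosen with earlier results of these data known, so these counts are a description only. A further 10 probes list such a gene together with others and were not read for any of them. AT5G46420, of the plastid ribosome assembly list, had its own probe, but this was below the intensity floor in all 12 samples and was not tested.

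The 3 editing genes did not pass. CRR21, a PPR protein that edits a site in the chloroplast ndhD transcript, measured 0.845, 0.759 and 0.662 in the WT sets and 0.764, 0.807 and 1.14 in the psad1 sets. Its psad1 set 3 stood above all other sets. The log2 difference of CRR21 was 0.24 (SE 0.16, limma adjusted p 0.496), 0.06 without psad1 set 3 and 0.04 after the running median correction, with 23 of its 24 neighbours higher in psad1. AT3G22690 measured 0.323 ± 0.0233 (SD, n = 3) in WT and 0.378 ± 0.0456 in psad1, with a log2 difference of 0.22 (SE 0.12, adjusted p 0.417), or 0.09 after that correction. OTP85, a PPR protein that edits another ndhD site, measured 0.344 ± 0.00961 in WT and 0.334 ± 0.026 in psad1 (log2 difference −0.04, SE 0.10, adjusted p 0.867), and its sign turned after that correction, to 0.07.

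Low signal limits 3 of the 7 genes more than the others. The lowest ratio of a sample's intensity to that sample's floor was 1.92 for PAC, 1.68 for AT3G22690 and 1.73 for OTP85. This lowest ratio was 2.92 for OSB1, 3.82 for CRR21, 3.86 for AT5G55580 and 6.58 for OTP70. With an offset added in place of the floor, the log2 difference of PAC was 0.39 (limma adjusted p 0.171). An added offset narrows log2 differences by construction, and those of AT5G55580 (0.21) and OTP70 (0.17) narrowed too. No sample of PAC lay at the floor.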

How the data were processed

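The deposited table holds intensity values of 3439 probes in 12 samples, made by the authors. The sources used here do not give the scanner, the background correction or the scaling, and the unit was taken from the values. Intensities below each sample's floor, the 5th percentile of its positive values (0.152 to 0.184), were raised to it before the log2 step. Probes that never exceeded the floor (237) were dropped, which left 3202. All 4 genes and 640 of 692 single-gene probes remained. Samples 1 and 2, 3 and 4, and 5 and 6 of a genotype were averaged on the log2 scale and compared by limma 3.58.1 (R 4.3.3), using lmFit and eBayes, 2-sided p-values, Benjamini-Hochberg adjustment across the 3202 probes and a threshold of 0.05. The fit was tested on simulated data with errors drawn separately for each probe. That test therefore did not cover differences shared by probes with nearby numbers. Means and SDs refer to linear set averages. The RefSeq gene table (TAIR10.1) supplied current symbols for 690 of 692 single-gene probes. As the sources used here do not give the array's build, no coordinates are printed. Genes named were the 4, the tested list genes and the 3 most alike per gene. The genes and lists were chosen with earlier results of these data known. Alternatives were other replicate structures, normalizations, floors, filters, position corrections and models, and leaving out each sample or set. Figures were drawn with matplotlib 3.10.9.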

Additional observations from a re-analysis of the deposited data

How the results depend on the processing

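PAC, AT5G55580 and OTP70 kept a higher value in psad1 under every alternative run. With the 12 samples as independent, PAC passed (log2 difference 0.53, adjusted p 0.00803), as it did on 12 samples after running median correction (0.63, 0.00454) and after nearest-probe correction (0.265, 0.0402), both chosen after seeing the data. AT5G55580 passed in the latter 2 (0.258, 0.00659 and 0.242, 0.0475), which called 13.7% and 10.9% of all probes. With the sample number as a replicate block on 12 samples, PAC (0.53, 0.00321) and AT5G55580 (0.26, 0.0497) passed. That fit called 761 of the 3202 tested probes. All these fits on 12 samples took partner samples as independent, although partners were far more alike than other samples. With the sets as a random block on 12 samples, neither gene passed (limma adjusted p 0.0723 and 0.286). Nor did either gene with a replicate block of set numbers on set averages (0.0937 and 0.303). Shared numbers were not read as pairs, because not every pair correlated over 0.1 across genotypes: 4 of 6 same-numbered samples did (lowest r 0.00805, highest 0.483) and 2 of 3 same-numbered sets (−0.0541 to 0.488). Listed genes called were 0 on set averages and 0 with the sets as a random block. They were 1 on 12 samples as independent, and 2 with the replicate block or either correction on 12 samples.

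OSB1 turned sign, with no cause tested and no call, to 0.00166 after correction over 25 probes (set averages or 12 samples), 0.000691 without WT sample 6 (from −0.0366 over left-out samples), and 0.022 and 0.0512 without WT set 1 and psad1 set 1 (from −0.0794). OTP85 became 0.074 and 0.0737 after correction over 25 and 51 probes and 0.0675 after nearest-probe correction. That correction took PAC to 0.265 and OTP70 to 0.0326 on set averages, with no call. With 1 set left out the range was 0.362 to 0.628 for PAC, 0.124 to 0.333 for AT5G55580 and 0.101 to 0.301 for OTP70, and with 1 sample left out 0.486 to 0.567, 0.23 to 0.283 and 0.158 to 0.224.

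Of all probes 28 passed on set averages. This became 505 on 12 samples, 761 with the replicate block, 440 and 348 after running median and nearest-probe correction of 12 samples, 84 with a random block, 59 with array weights, 59 with the offset, 51 with no filter, 46 with a floor at the 10th percentile, 56 and 47 after correction over 25 and 51 probes, 53 after nearest-probe correction, 12 at a threshold of 0.01, and 9 to 53 with a set left out. The cause was not tested.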

Other observations

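Of 14 sets of 6 values, those of 7 genes in 2 genotypes, none had a sample whose gap to the nearest other exceeded the 95% limit of Dixon's test. Pairs of partner samples that lie apart together are not marked by that test. WT set 1 was the highest set for 9.93% of tested probes and psad1 set 1 the lowest for 38.2%, so PAC, highest in psad1 set 1, was among the 10.9% of probes with that set on top.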
